A study of Homo sapiens with 6 samples.

Results

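The feedback regulators of the ERK pathway described here are 10 genes: the dual-specificity phosphatases DUSP1, DUSP4, DUSP5, DUSP6 and DUSP10, the Sprouty genes SPRY1, SPRY2 and SPRY4, and the Sprouty-related genes SPRED1 and SPRED2. The members were every probe set to which the array's platform annotation gave 1 of these symbols and no other, which came to 29 of 49372 probe sets. The study used ARPE-19, an established line of human retinal pigment epithelial cells, and asked how its transcripts differ when satellite alpha, the repeat DNA of centromeres, is delivered on a plasmid. Cells in 6-well plates received 2.5 µg per well of a GFP plasmid, the control group, or of a GFP plasmid with satellite alpha, here called SATalpha. Each group had 3 arrays, all of total RNA from the same line and with the same growth medium, and GFP was common to both plasmids. The labels state that each transfection was done 3 times, but not whether on separate cultures; the spread that the p-values rest on may thus be technical. They do not give the time after transfection or the share of cells that took up plasmid.

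ERK is the last kinase of a cascade that runs from growth factor receptors through RAS, RAF and MEK. Its activity induces its own inhibitors, so their transcripts are widely used as a readout of the pathway. The DUSP proteins remove phosphate from MAP kinases in the nucleus or the cytoplasm, and Sprouty and SPRED proteins act higher up, between the receptor and RAF.

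Of the 10 genes, DUSP10, SPRED1 and SPRY2 were higher with satellite alpha and DUSP5 was lower, by 1.18 to 1.25-fold. DUSP1, DUSP6, SPRY1, DUSP4 and SPRED2 did not pass the test, and SPRY4 was too dim to enter it. The test was limma's moderated test with each gene represented by its brightest probe set. A gene counted as called when its p-value, adjusted by Benjamini-Hochberg over 10879 tested genes, was under 0.05. Among all tested genes 20.8% were called, 7.72% as higher and 13.0% as lower. Among the 9 tested members 3 were called higher and 1 lower, and the median log2 difference was 0.14, against -0.02 for all tested genes. In 5 of the 9 members the 3 SATalpha arrays all lay above the 3 GFP arrays and in 3 all lay below, while 37.6% of all tested genes showed no overlap between the groups. When a gene's probe sets were averaged instead, 6 members were called: DUSP1, DUSP6 and SPRY1 joined as higher and SPRED1 dropped out, as given below for each gene. By that rule 2113 of all 10879 tested genes were called, 943 as higher and 1170 as lower.

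The DNA before the starts of 3 genes called higher is shown because their brightest probe sets were called in the same direction, for SPRED1 1 probe set of 5, and that of DUSP1 because it is the classic immediate early phosphatase. The RefSeq table (GRCh38.p14) held 13 start windows for 8 of the 10 genes and none for DUSP4 and DUSP5. Each line gives the 250 bases before the outermost listed start, 5′ to 3′ on the gene's strand. Capitals mark matches, on either strand, to the core of the cAMP response element (TGACG), the AP-1 site (TGANTCA), the ETS site (CCGGAAG), the GC box (GGGCGG), the TATA box (TATAAA), the CCAAT box (CCAAT) and the CArG box of serum response factor. Matches may overlap, and a match is a run of letters, not a binding site.
DUSP10 (chr1:221742090-221742339, minus strand): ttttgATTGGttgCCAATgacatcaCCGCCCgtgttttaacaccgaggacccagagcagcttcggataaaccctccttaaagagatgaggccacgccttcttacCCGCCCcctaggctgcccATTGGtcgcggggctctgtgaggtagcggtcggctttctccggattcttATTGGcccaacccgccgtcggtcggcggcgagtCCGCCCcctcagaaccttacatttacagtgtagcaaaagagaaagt
SPRY2 (chr13:80341127-80341376, minus strand): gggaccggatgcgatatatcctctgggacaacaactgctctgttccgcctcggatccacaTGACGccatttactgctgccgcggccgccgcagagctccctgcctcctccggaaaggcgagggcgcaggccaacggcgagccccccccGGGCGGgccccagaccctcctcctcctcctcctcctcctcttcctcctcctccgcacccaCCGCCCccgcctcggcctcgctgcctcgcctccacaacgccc
SPRED1 (chr15:38252586-38252835, plus strand): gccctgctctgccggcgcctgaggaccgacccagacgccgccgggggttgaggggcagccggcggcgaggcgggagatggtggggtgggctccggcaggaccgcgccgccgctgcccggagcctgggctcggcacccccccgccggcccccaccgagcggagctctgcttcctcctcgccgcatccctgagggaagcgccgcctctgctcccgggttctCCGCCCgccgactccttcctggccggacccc
DUSP1 (chr5:172771196-172771445, minus strand): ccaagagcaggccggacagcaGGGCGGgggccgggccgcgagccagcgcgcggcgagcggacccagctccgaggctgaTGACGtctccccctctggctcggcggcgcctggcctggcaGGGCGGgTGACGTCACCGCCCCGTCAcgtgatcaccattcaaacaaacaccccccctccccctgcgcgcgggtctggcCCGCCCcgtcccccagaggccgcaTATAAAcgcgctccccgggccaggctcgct

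DUSP1 had 4 cores of the cAMP response element, 2 of them overlapping, 4 GC boxes and a TATA box whose first base lay 30 bases before the start. This core was found in 3 of the 13 member windows and in 21.2% of all 35116 promoter windows of the same length. DUSP10 had 4 CCAAT boxes in the window shown, between 245 and 75 bases before the start, along with 3 GC boxes. The CCAAT box was in 3 of 13 member windows and in 32.0% of all windows, and the GC box in 7 of 13 and in 42.6%. SPRY2 had 1 such core and 2 GC boxes, and SPRED1 had 1 GC box. No member window held an AP-1 site or a CArG box, which were in 6.57% and 1.16% of all windows. The ETS site was in 1 member window, of SPRY1, and in 8.52% of all windows, and the TATA box in 2 member windows and in 10.7%. Of the motifs searched, the GC box alone was in all 3 windows shown for genes called higher. It was also in windows of DUSP1, SPRY1 and SPRY4, which were not called at the gene level, and the SPRY2 windows not shown held none. The windows shown were 56.4% G or C for DUSP10, 70.4% for SPRY2 and 78.4% for SPRED1, against a median of 58% over all windows.

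The arrays resembled each other closely. Array medians were 5.29 to 5.32 on the log2 scale, and correlations across probe sets, which are not independent replicates, were 0.995 to 0.997 between any 2 arrays. The first principal component held 56.6% of the variance and separated the groups. The difference between 3′ and 5′ control probe sets, a sign of RNA integrity, was 0.393 ± 0.046 with GFP and 0.393 ± 0.068 with SATalpha for GAPDH, and 2.06 ± 0.07 and 2.01 ± 0.13 for ACTB (SD, n = 3). The groups overlapped in both measures (two-sided exact permutation p = 1 and 0.6); with 3 against 3 arrays this test cannot go below 0.1, so it could not have shown a difference at 0.05. Of 13 measured markers of retinal pigment epithelium, 7 were bright enough to test: KRT8, KRT18, MITF, OTX2, SERPINF1, PMEL and TYR. The pigment genes PMEL (means 5.70 with GFP and 5.79 with SATalpha) and TYR (5.31 and 5.21) were the dimmest of these. RPE65, RLBP1, BEST1, LRAT, TYRP1 and TTR, which mark differentiated pigment epithelium, were below the floor of the test. Summed log2 signals of this list were 82.5 to 82.7 with GFP and 81.4 to 81.9 with SATalpha. They were 20.5 to 21.2 and 19.7 to 20.0 for 4 photoreceptor markers, and 23.6 to 23.8 and 23.3 to 23.6 for 5 macrophage markers. For 5 fibroblast markers (17.1 to 17.7 and 17.0 to 17.3) and 4 endothelial markers (17.3 to 17.7 and 17.4 to 18.1) the groups overlapped, and all 5 fibroblast markers were below the floor. Above the floor were the macrophage markers CD68 and CSF1R, the endothelial markers PECAM1 and VWF, and the photoreceptor markers PDE6B and CRX. Of all these markers KRT8, KRT18 and PDE6B were called, as lower. The part of these shifts in the results was not tested. Fewer cells expressing a gene and less RNA per cell cannot be told apart in such samples.

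**Figure D1:**
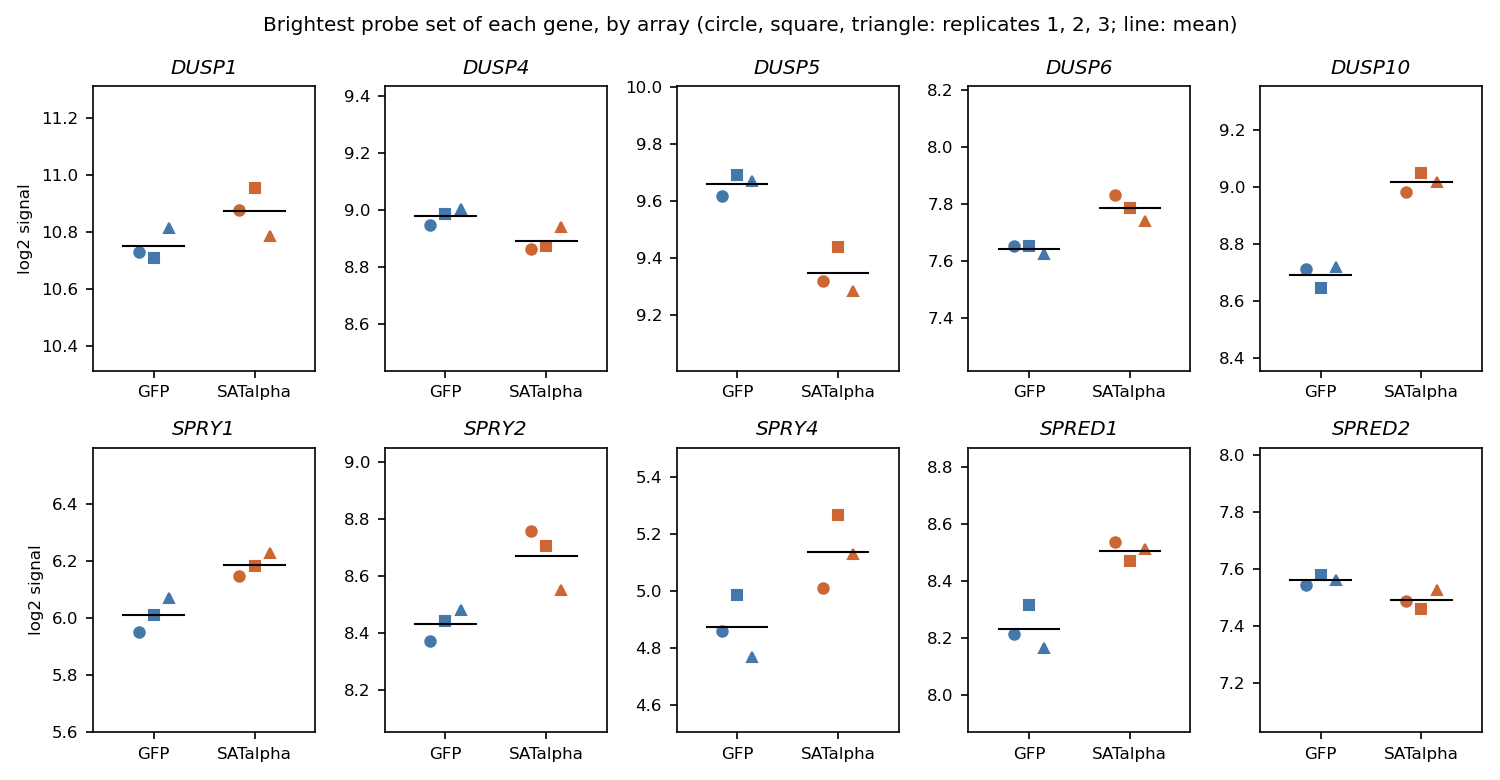
Log2 signal of the brightest probe set of each of the 10 genes (vertical axis, spanning 1 log2 unit in every panel) in the 3 GFP arrays (blue) and the 3 SATalpha arrays (orange), with lines at the group means. DUSP10, SPRED1 and SPRY2 lay higher and DUSP5 lower in all 3 SATalpha arrays, while the groups overlapped for DUSP1.

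DUSP5 is a nuclear phosphatase that acts on ERK alone among the MAP kinases and holds it in the nucleus. Its single probe set read 9.62, 9.69 and 9.67 in the 3 GFP arrays and 9.32, 9.44 and 9.29 in the 3 SATalpha arrays. All SATalpha arrays lay below all GFP arrays, and the gap between the groups was wider than the range within either. The log2 difference was -0.31 (SE 0.05, limma adjusted p = 0.000504), or 1.24-fold lower. DUSP5 ranked 675 of 10879 genes by size of difference. It stayed called under all 14 alternatives of the gene-level test, with differences from -0.36 to -0.28, and over probe sets under 10 of 11, the exception being a fit without a mean-variance trend (adjusted p = 0.0566).

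DUSP4, another nuclear phosphatase of ERK, which also acts on the stress kinase JNK, read 8.95, 8.98 and 9.00 with GFP and 8.86, 8.87 and 8.94 with SATalpha. The groups did not overlap, but the nearest arrays were almost level, and the difference of -0.09 (SE 0.05) did not pass (limma adjusted p = 0.200). Its 95% confidence interval was -0.18 to 0.01, so a fall as large as that of DUSP5 lay outside it. Both genes had 1 probe set, so no second reading of either was available.

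DUSP6 is the cytoplasmic phosphatase specific to ERK and the member most often used to gauge pathway output. Its brightest probe set read 7.65, 7.65 and 7.62 with GFP and 7.83, 7.78 and 7.74 with SATalpha. The SATalpha arrays were all higher, yet the difference of 0.14 (SE 0.05) did not pass (limma adjusted p = 0.0775). The 3 dimmer probe sets gave larger differences of 0.25, 0.32 and 0.24, and with all 4 the SATalpha arrays lay above the GFP arrays. In a second fit over all 49293 probe sets other than controls, where 8.36% were called, the one with 0.32 passed (limma adjusted p = 0.0181) and held under 8 of 11 alternatives. As the mean of its 4 probe sets DUSP6 differed by 0.24 and passed (adjusted p = 0.0104). The direction for DUSP6 was the same in every probe set, and the call depended on how probe sets were combined.

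DUSP1 is a nuclear phosphatase that acts on p38 and JNK as well as ERK and is induced within minutes by growth factors and stress. Its brightest probe set read 10.73, 10.71 and 10.82 with GFP and 10.88, 10.96 and 10.79 with SATalpha. SATalpha replicate 3 fell among the GFP arrays, and the difference of 0.12 (SE 0.05) did not pass (limma adjusted p = 0.0780). Without that array it was 0.16 and passed (adjusted p = 0.00980). The dimmest probe set read 6.88, 6.86 and 6.82 with GFP and 7.20, 7.03 and 7.16 with SATalpha, with no overlap. Over probe sets it and the next dimmest passed, with 0.27 and 0.26 (limma adjusted p = 0.0214 and 0.0329), and the remaining one, at 0.12, did not (adjusted p = 0.0916). The 2 that passed are annotated to the same source sequence, so they may not be separate readings. The array's naming also marks the dimmest as one that can match other transcripts. Each of the 2 calls held under 5 of 11 alternatives. The mean of the 4 probe sets differed by 0.20 and passed (adjusted p = 0.00537).

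DUSP10 prefers p38 and JNK to ERK, so it is linked to the ERK pathway less directly than the other phosphatases. It had the largest increase of the group. Its brightest probe set read 8.71, 8.65 and 8.72 with GFP and 8.98, 9.05 and 9.02 with SATalpha, and the distance between the groups was several times the range within them. The difference was 0.32 (SE 0.05, limma adjusted p = 0.000268), or 1.25-fold higher, and ranked 623 of 10879 genes by size. The array's naming marks this brightest probe set as one that can also match other transcripts. Without probe sets so marked, DUSP10 differed by 0.41 and was still called (limma adjusted p = 9.48e-05). The dimmest of its 4 probe sets read 7.48, 7.44 and 7.40 with GFP and 7.99, 7.86 and 8.11 with SATalpha. Differences in the 3 dimmer probe sets were 0.41, 0.53 and 0.55, and all 4 passed over probe sets, with adjusted p-values from 3.29e-05 to 0.000708. The mean of the 4 gave 0.45 (adjusted p = 2.34e-05). DUSP10 was called under all 14 gene-level alternatives, with differences from 0.30 to 0.45, and each probe set under all 11 of its own.

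**Figure D2:**
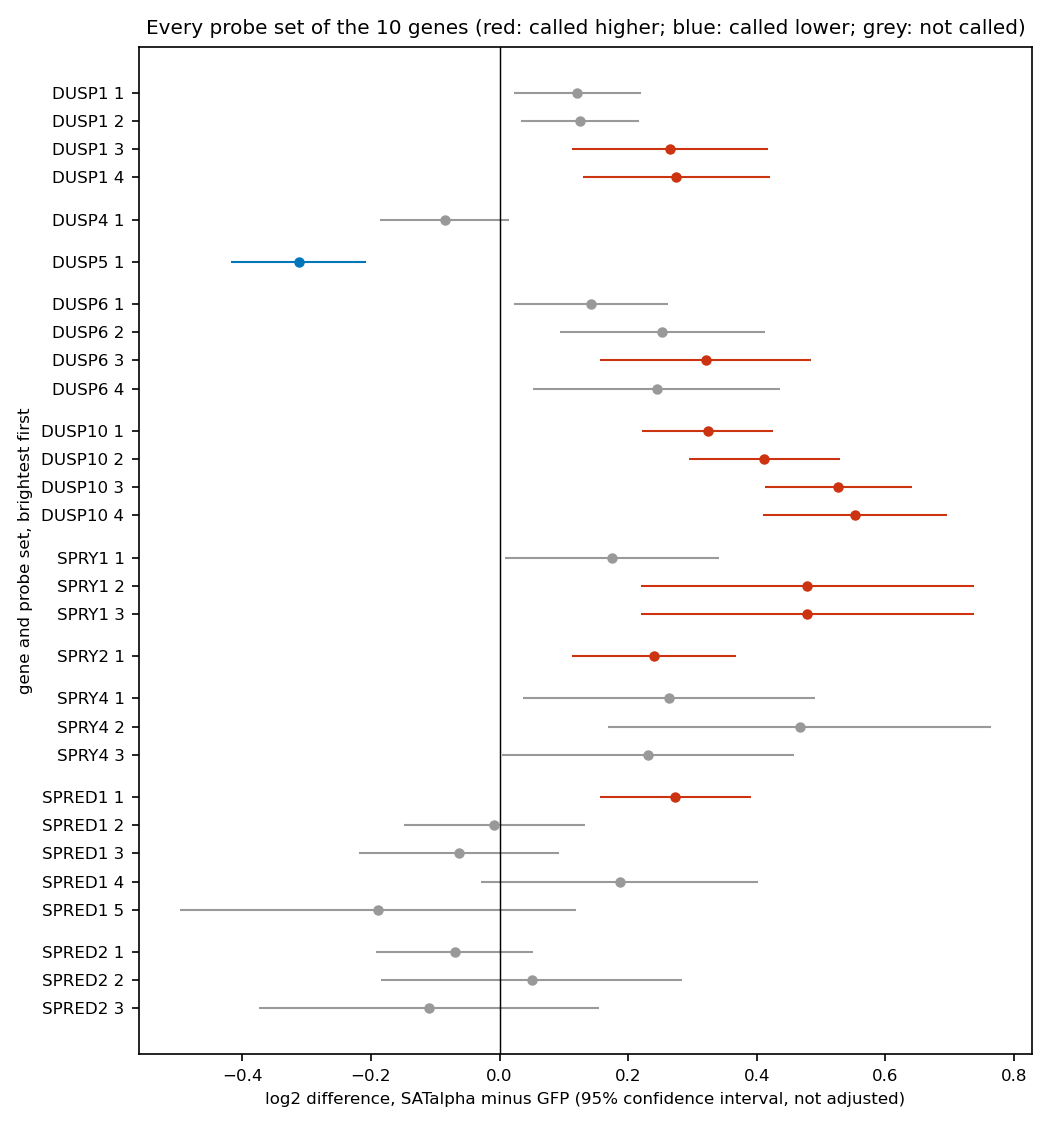
Log2 difference, SATalpha minus GFP (horizontal axis), for all 29 probe sets, grouped by gene with the brightest first; points are limma estimates, bars are 95% confidence intervals that are not adjusted for the number of probe sets, and colour shows calls over all probe sets. All 4 DUSP10 probe sets lie between 0.32 and 0.55, the DUSP5 probe set alone was called lower, and the 5 SPRED1 probe sets spread from -0.19 to 0.27.

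Over probe sets, 11 of the 29 members were called higher and 1 lower, against 8.36% called in either direction among all probe sets. In 19 the SATalpha arrays lay above and in 3 below the GFP arrays, while 26.0% of all probe sets showed no overlap. Both shares include dim probe sets, since this fit had no filter, whereas most member probe sets were bright. In the filtered gene-level test the shares were higher, with 20.8% called and 37.6% without overlap, so the contrast over probe sets is partly one of brightness. A pair of SPRY1 probe sets held identical values in every array and is 1 measurement; counted once, 10 of 28 were higher and 1 lower. Probe sets of 1 gene read the same RNA, so these counts are not counts of independent changes. They changed with the test: 4 probe sets were called without a mean-variance trend, 6 without GFP replicate 1, and 7 without GFP replicate 3 or SATalpha replicate 1.

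The Sprouty proteins sit at the membrane after growth factor stimulation and block the step between receptor and RAF. SPRY2, the member best studied in epithelial cells, had 1 probe set, which read 8.37, 8.44 and 8.48 with GFP and 8.76, 8.71 and 8.55 with SATalpha. SATalpha replicate 3 was the nearest to the control group but still above it. The difference was 0.24 (SE 0.06, limma adjusted p = 0.0105), or 1.18-fold higher. The call was lost without GFP replicate 1 (0.21, adjusted p = 0.0687) or SATalpha replicate 1 (0.20, adjusted p = 0.0644). It held under the other 12 gene-level alternatives (adjusted p from 0.000749 to 0.0477, the highest with the replicate block). Over probe sets it passed (limma adjusted p = 0.0223) but held under only 5 of 11 alternatives: it was lost with the replicate block (adjusted p = 0.0705), without a mean-variance trend (adjusted p = 0.141) and without replicate 1 or 2 of either group (adjusted p from 0.0614 to 0.127).

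SPRY1 was dimmer. Its brightest probe set read 5.95, 6.01 and 6.07 with GFP and 6.15, 6.18 and 6.23 with SATalpha, without overlap, and the difference of 0.17 (SE 0.08) did not pass (limma adjusted p = 0.118). The probe sets with identical values read 4.43, 4.78 and 4.52 with GFP and 4.96, 4.96 and 5.24 with SATalpha. They differed by 0.48 (SE 0.12) and passed over probe sets (limma adjusted p = 0.0243). The call was lost without GFP replicate 1 or 3 or SATalpha replicate 1 or 3 (adjusted p from 0.0543 to 0.126). It was also lost with the replicate block (adjusted p = 0.0517) and without a mean-variance trend (adjusted p = 0.0753). Their group means, 4.57 and 5.05, lay under 5.19, the floor of the gene-level test. The array's naming also marks these probe sets as shared between transcripts. The mean of all SPRY1 probe sets, which weights that pair as 2, differed by 0.38 and passed (adjusted p = 0.00842).

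The mean log2 signal of SPRY4 was below the floor of 5.19, under which genes were not tested, and SPRY4 was read only over probe sets. That probe set was at 4.86, 4.99 and 4.77 with GFP and 5.01, 5.27 and 5.13 with SATalpha. The differences of its 3 probe sets were 0.26, 0.47 and 0.23, and in each the SATalpha arrays lay above the GFP arrays, but none passed (limma adjusted p = 0.157, 0.0532 and 0.223). The middle one passed without SATalpha replicate 2 (0.58, adjusted p = 0.0309). All SPRY4 probe sets can also match other transcripts by the array's naming, and the share of background in so dim a signal was not tested.

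SPRED proteins bind neurofibromin and bring this RAS inhibitor to the membrane. For SPRED1 the probe sets disagreed. The brightest read 8.21, 8.32 and 8.16 with GFP and 8.53, 8.47 and 8.51 with SATalpha, a clear separation. Its difference was 0.27 (SE 0.05, limma adjusted p = 0.00259), or 1.21-fold higher. The next brightest read 7.52, 7.52 and 7.39 with GFP and 7.43, 7.42 and 7.56 with SATalpha, which overlapped, and differed by -0.01. The remaining 3 differed by -0.06, 0.19 and -0.19, also with overlapping groups. The probe set that was called is of a kind the array's naming marks as shared between transcripts. Without such probe sets SPRED1 differed by -0.01 and was not called (adjusted p = 0.954), and the mean of its 5 probe sets differed by 0.04 (adjusted p = 0.739). Which part of the SPRED1 transcript each probe set reads was not analysed here.

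SPRED2 read 7.54, 7.58 and 7.56 with GFP and 7.49, 7.46 and 7.52 with SATalpha in its brightest probe set. These groups did not overlap, but the difference was only -0.07 (SE 0.05, limma adjusted p = 0.402; 95% confidence interval -0.19 to 0.05). The other probe sets, both under the floor of the gene-level test, differed by 0.05 and -0.11. The interval of the bright probe set excluded a rise of the size seen in the brightest SPRED1 probe set.

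Other genes of the pathway were read from lists chosen by role. Among 17 tested genes known to be induced through ERK, 6 were called higher and 1 lower, against 20.8% called in either direction among all tested genes, with a median of 0.08. The count of higher genes was 5 with quantile normalization, with the replicate block and without any 1 array other than GFP replicate 1, and 4 without that array; without replicate 3 of either group 2 were lower. The lower one was the zinc finger factor EGR1 (-1.28, limma adjusted p = 1.61e-08), whose 5 other probe sets differed by -1.23 to -0.13. IER3, a survival factor that slows ERK dephosphorylation, rose by 0.61, the cyclin CCND1 by 0.30 and PHLDA1 by 0.26, although the 3 other PHLDA1 probe sets differed by -0.20 to -0.14. MYC (0.17), MCL1 (0.18) and PLAUR (0.13), named after their values were seen, made up the 6. The PLAUR call was lost whichever array was left out, and its 4 other probe sets differed by -0.15 to -0.05. The MCL1 call was lost without GFP replicate 1, and the MYC call in none of the 6 cases. The ETS factors ETV4 and ETV5, which track FGF and ERK activity and were also named after their values were seen, were at 0.0043 and -0.18 and did not pass (adjusted p = 0.981 and 0.0567). Among the members DUSP5 was the only one called lower, and in this list EGR1 was.

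The kinases themselves differed little. In the list of adaptors, RAS, RAF, MEK and ERK genes 1 of 14 tested was called, LAMTOR3, a scaffold for MEK on late endosomes (0.19, limma adjusted p = 0.00453), whose other probe set differed by -0.15. MAPK3, which encodes the ERK1 kinase, was at -0.11 (SE 0.06, adjusted p = 0.195), MAP2K1 at -0.05 (SE 0.04, adjusted p = 0.410) and MAP2K2 at 0.01 (SE 0.04, adjusted p = 0.886). With quantile normalization 3 of this list were called, and without SATalpha replicate 2, 2 were. Among 9 tested receptors FGFR1 was called lower (-0.20, limma adjusted p = 0.0158). That call was lost with the replicate block and when the first array of either group was left out. Without SATalpha replicate 2 the list had 2 calls. Among 14 tested ligands 3 were higher and 2 lower. The total was 3 with the replicate block and when the first array of either group was left out. Without SATalpha replicate 3 it was 7, with 3 higher and 4 lower. FGF5 rose by 0.50 (adjusted p = 0.000140), with its 5 other probe sets at 0.26 to 0.61. KITLG, the ligand of KIT, rose by 0.25, and the EGF family member BTC by 0.23, while NRG1, of the same family, fell by 0.25 and FGF1 by 0.20. BTC was named after its values were seen, and its call held only when SATalpha replicate 3 was the array left out. The FGF1 call was lost without GFP replicate 1 and without SATalpha replicate 1. Probe sets of KITLG, NRG1 and FGF1 included some of the opposite sign.

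**Figure D3:**
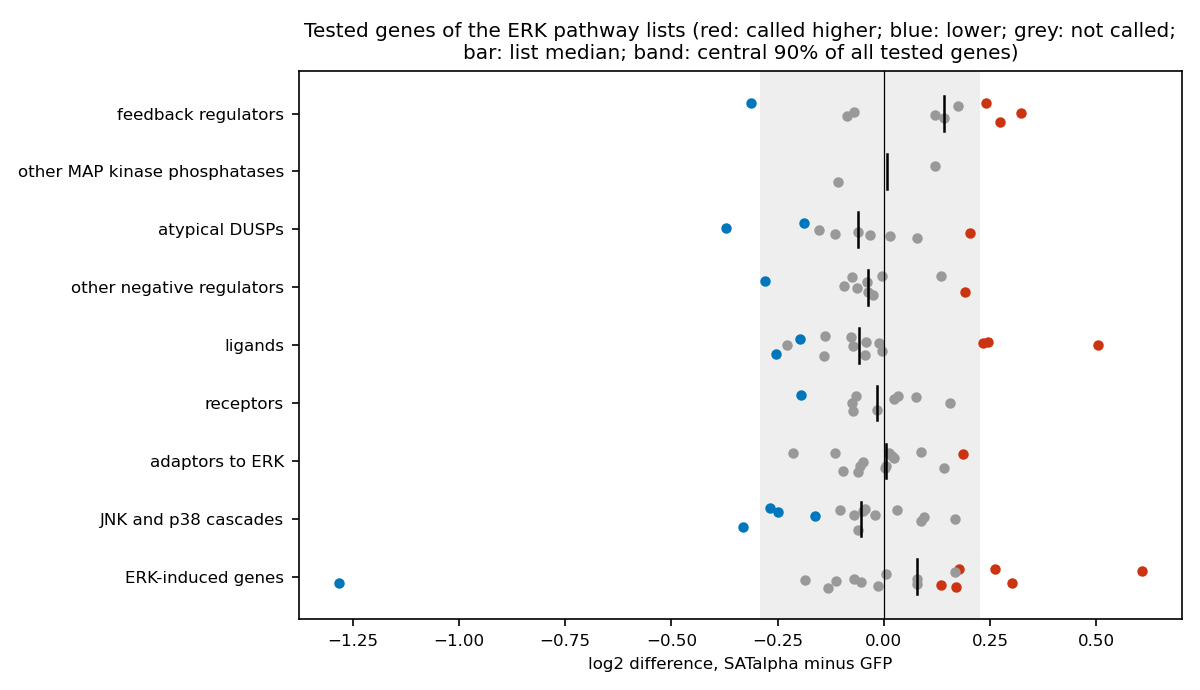
Log2 difference, SATalpha minus GFP (horizontal axis), of each tested gene in 9 lists of the pathway; 1 point is 1 gene at its brightest probe set, coloured by call, and the vertical offset within a row is only for legibility. Bars are list medians and the grey band, from -0.29 to 0.22, holds 90% of all tested genes; EGR1 at -1.28 lies farthest out, and 4 feedback regulators lie outside the band.

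Other inhibitors of the pathway did not move as 1 group. ERRFI1, an inhibitor of the EGF receptor that ERK also induces, fell by 0.28 (limma adjusted p = 0.000970). NF1, which encodes neurofibromin, rose by 0.19 (adjusted p = 0.0329), but of the 6 arrays only leaving out GFP replicate 1 kept the call, and its 20 other probe sets ran from -0.11 to 0.38. The other 8 of 10 tested genes in that list did not pass. Of the other MAP kinase phosphatases, DUSP16 (-0.11, adjusted p = 0.293) and DUSP8 (0.12, adjusted p = 0.320) were tested and did not pass. The other DUSP8 probe set had the opposite sign, at -0.40, and the other DUSP16 probe sets were at -0.54 and -0.12. Atypical DUSP genes, whose products lack the kinase-binding domain, had 1 higher and 2 lower of 9: DUSP3 rose by 0.20, and the RNA phosphatase DUSP11 and DUSP14 fell by 0.37 and 0.19. Without GFP replicate 1 DUSP11 was the only one of these 3 still called, and DUSP14 was also lost without GFP replicate 2. In the list of the JNK and p38 cascades, 4 of 14 tested genes (28.6%) were called, all as lower. Among all tested genes 20.8% were called, 13.0% as lower. With the replicate block 3 of the list were called, all as lower. GADD45B fell by 0.16, the kinase MAP3K1 by 0.25, and the p38 kinases MAPK12 by 0.27 and MAPK13 by 0.33. With quantile normalization 5 were called, 1 of them higher. The MAPK12 call was lost without GFP replicate 2. The MAPK13 call was lost without GFP replicate 1 or 3 or SATalpha replicate 1, and the other probe sets of MAP3K1 and MAPK13 differed by 0.0072 to 0.16.

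The genes whose 6 array values most resembled those of the 2 members with the largest differences were found by the root mean square distance between array values, each taken from its own GFP mean. For DUSP10 they were PPIF (distance 0.0293), DMRTA1 (0.0307) and IFIT1 (0.0310), which rose by 0.35, 0.29 and 0.32. For DUSP5 they were MED20 (0.0279), TBC1D10A (0.0289) and TRUB1 (0.0300), which fell by 0.30, 0.30 and 0.29. PPIF encodes a mitochondrial cyclophilin, IFIT1 an interferon-induced RNA-binding protein, MED20 a Mediator subunit and TRUB1 a pseudouridine synthase. The likeness is mainly that of the group difference, since all 6 arrays entered it.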

How the data were processed

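RNA from 6 transfections was measured on Affymetrix arrays, 3 per plasmid. The authors deposited log2 values (the log base was read from the values), whose near-equal medians show that arrays had been brought to 1 scale. MAS5 and RMA are both named per the submitters' processing notes; the sources used here do not give which of them made these values, its version or its filters. Detection calls and scan dates were not used here, so batch was not tested.

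Gene names came from the platform annotation: of 49372 probe sets, 79 were controls, 44988 had 1 symbol, 1832 several and 2473 none. For 18132 genes the probe set of highest mean over the 6 arrays stood for the gene, and the lowest 40% of genes were left out. The comparison used limma 3.58.1 under R 4.3.3, with eBayes fitting a mean-variance trend, and a second fit took all probe sets. SE is limma's moderated one. The members, pathway lists, tests and alternatives were chosen with earlier results of these data known. Named genes were all members, MAPK3, MAP2K1, MAP2K2 and EGR1 where tested (a further gene is not reported here), and up to 4 called genes of each list by smallest p (or 2 uncalled), with the 3 nearest genes of 2 members. List genes with no probe set of 1 symbol were not analysed here. Alternatives changed the filter, probe set rule, normalization, variance trend and replicate block, or left out 1 array. The fit was tested on simulated data.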

Additional observations from a re-analysis of the deposited data

How the results depend on the processing

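With 3 arrays per group the precision is limited, and dim probe sets could not be set against background. DUSP10 and DUSP5 kept their calls under every gene-level alternative. Over all genes 2259 were called, against 1300 with the replicate number as a block and 1216 to 2520 when 1 array was left out. Member genes called stayed at 4 with the block and were 3 to 5 without 1 array. Same-numbered arrays of the groups deviated with correlations of -0.29 to -0.0035, and no array correlated best with that of its own number. The highest correlation was 0.34, between GFP replicate 3 and SATalpha replicate 2. With 3 arrays per group, whose deviations are tied to each other, these values cannot settle whether the samples were paired. Over probe sets 4123 were called, against 1321 without a mean-variance trend, 2328 with the replicate block and 1967 to 4325 without 1 array. Member probe sets called were 12, against 4 without a trend, 7 with the block and 6 to 12 without 1 array. Fewer arrays and the block leave fewer degrees of freedom; the cause of the other shifts was not tested.

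The sign of SPRED1 turned to -0.0079 without probe sets ending in _s_at or _x_at, where its next brightest probe set stands in. That probe set, near 0 throughout, was at 0.0045 with quantile normalization and ran from -0.0555 to 0.0180 without 1 array, and a dim SPRED2 probe set ran from -0.0032 to 0.15. SPRY4 was below the floor, so it has no gene-level value to compare, and SPRY1 was below it under the stricter filter. Of 124 other gene-level values of members 117 kept direction and side of the threshold, 4 newly passed and 3 no longer passed. Of the probe set values 269 kept both, 6 newly passed, 35 no longer passed and 6 changed sign.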

Other observations

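In the 3 members with 4 distinct probe sets, DUSP1, DUSP6 and DUSP10, the brightest probe set had the smallest difference of the 4. Among 1387 tested genes with 4 distinct probe sets this held in 26.5%, and among the 141 of them called higher in 9.93%, a set that was itself chosen on the brightest probe set. SPRED1, with 5 probe sets, showed the opposite: its brightest probe set had the largest difference, 0.27, against -0.19 to 0.19 in the others. The DUSP1 order rested on differences of 0.121 and 0.125 in its 2 brightest probe sets. It turned around without GFP replicate 3, SATalpha replicate 1 or SATalpha replicate 3. The DUSP6 order turned around without GFP replicate 3, with 0.133 in the brightest probe set against 0.127 in the dimmest. With all 6 arrays the gene-level difference of DUSP1, DUSP6 and DUSP10 is the lowest that their probe sets gave. The dimmer DUSP10 probe sets put its increase at up to 0.55 on the log2 scale.

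Among the phosphatases DUSP10 was called higher and DUSP5 lower. The 2 Sprouty genes that were tested and every SPRY4 probe set had a positive difference, of which SPRY2 alone was called at the gene level.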
